A study of Mus musculus with 4 samples.

Results

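The D-type cyclins, their kinase partners CDK4 and CDK6, and the CDK inhibitors of the INK4 and KIP families were read in chemically transformed mouse fibroblasts with and without phorone. The 10 genes were Ccnd1, Ccnd2, Ccnd3, Cdk4, Cdk6, Cdkn1b, Cdkn1c, Cdkn2a, Cdkn2b and Cdkn2c. They were found by the gene name that the array design gives to each probe, which returned 15 of the 40628 gene probes and 10 of the 29353 gene names on the array. All 4 samples were total RNA from C3H10T1/2, a mouse embryo fibroblast line, hybridised to one-colour Agilent arrays. Both groups carried the same history: 2.5 µg/ml of the carcinogen 3-methylcholanthrene (3MC) for 2 days, normal medium for 4 days, TPA, a phorbol ester, at 100 ng/ml over 2 weeks, and normal medium for 4 weeks. The control group (n = 2 arrays) was these transformed cells, and the phorone group (n = 2 arrays) was the same kind of cells exposed to 2 mM phorone, an unsaturated ketone that binds and depletes glutathione. The exposure time, the vehicle and the number of separate cultures are not given in the sample labels, so a p-value here reflects the spread between arrays, which may be technical.

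D-type cyclins are made when cells receive growth signals. They bind CDK4 or CDK6, and the active kinase phosphorylates the retinoblastoma protein RB, which then releases E2F factors that turn on genes for S phase. INK4 proteins (p16 from Cdkn2a, p15 from Cdkn2b, p18 from Cdkn2c) bind CDK4 and CDK6 and keep the cyclin away. KIP proteins (p27 from Cdkn1b, p57 from Cdkn1c) bind cyclin-CDK complexes and block CDK2, while p27 also helps D cyclins and CDK4 to assemble. Cdkn2a also encodes ARF, an activator of p53, from another promoter and reading frame.

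The probes are single DNA strands of 60 bases, and a gene's value is the brightness of its own strand. Since 3 of the genes had more than 1 probe and some of those probes disagreed, the strands on which the results turn are given here, numbered in the order used throughout. Those of Cdk4, Cdk6 probe 2, Cdkn1b probe 2 and Ccnd2 probes 1 and 3 are given whole, and the others by their first 30 bases.
Ccnd1: gttaattacagcattgtgctaatgtaaaga
Ccnd2 probe 1: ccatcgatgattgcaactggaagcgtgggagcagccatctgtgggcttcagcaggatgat
Ccnd2 probe 2: gtctctccgtcgcatactcttgctgactaa
Ccnd2 probe 3: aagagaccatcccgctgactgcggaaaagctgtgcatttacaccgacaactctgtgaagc
Ccnd3: gggtcttaagggtgccgtggtcattttaat
Cdk4: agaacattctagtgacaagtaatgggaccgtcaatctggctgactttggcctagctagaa
Cdk6 probe 1: acctgttttctggtgtgagatgttatcatt
Cdk6 probe 2: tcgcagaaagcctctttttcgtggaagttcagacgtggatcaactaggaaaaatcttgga
Cdkn1b probe 1: ttcattgcctgtgtatgagaaaaacttgga
Cdkn1b probe 2: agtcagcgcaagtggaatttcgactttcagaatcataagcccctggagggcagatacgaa
Cdkn1b probe 3: attagccaagcaaccataagactctagtca
Cdkn2a: cacttctagcgatgctagcgtgtctagcat
Cdkn2b: catgtgtggggattcacctgcaaaatggca
Cdkn2c: tctcactgacctcacactgtccgttagttg
The probes follow the RefSeq transcripts NM_007631 (Ccnd1), NM_009829 (Ccnd2), NM_007632 (Ccnd3), NM_009870 (Cdk4), NM_009873 (Cdk6), NM_009875 (Cdkn1b), NM_009876 (Cdkn1c), NM_009877 (Cdkn2a), NM_007670 (Cdkn2b) and NM_007671 (Cdkn2c). The array files list the single Cdkn2a probe under NM_001040654 as well, so its value cannot be split between p16 and ARF.

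Signals are log2 values minus the 75th percentile of the same array, so 0 is the brightness that 75% of the spots fall below, and a difference of 1 is a doubling. The scanner called 51.1% to 52.7% of an array's spots well above background and no spot saturated. The phorone and control arrays lay in different slide rows, and group and row cannot be told apart. Of 24205 tested gene probes, 45.8% were called different at a Benjamini-Hochberg adjusted p below 0.05 in limma (25.5% in the direction of higher and 20.3% of lower with phorone), and the median log2 change over all of them was 0.11. The choice of scale matters here: scaling on 7 spike-in RNAs moved every change up by 0.44, to a median of 0.54, and control replicate 2 stood apart in its spike-in level (3.41 above the percentile, against 2.56 to 2.76 on the other arrays). Each scaling subtracts 1 number per array. Relative to the median of all probes the changes are therefore the same on both scales by arithmetic, and that of Ccnd1 is -2.13. Fibroblast markers were above background on both control arrays for 12 of 12 genes and on both phorone arrays for 11 of 12, with 8 of 12 lower and 0 higher in phorone cells (limma; 0 higher at an unadjusted p below 0.05 too). Their median change was -1.42 (-1.23 with Lum at its bound), and their summed level, in multiples of the 75th percentile, was 1609 and 1665 in controls against 702 and 740 with phorone. Decorin (Dcn) was at 5.33 and 5.32 in controls and at 0.77 and 0.84 with phorone. The epithelial, endothelial, macrophage, adipocyte, skeletal muscle and chondrocyte lists had 1 of 6, 1 of 5, 3 of 6, 2 of 5, 1 of 5 and 3 of 5 genes tested, and the defining genes Cdh1, Pecam1, Ptprc, Adipoq and Myod1 were above background on no array. Of the genes tested, all 3 chondrocyte genes, 1 of the endothelial, 1 of the adipocyte and 1 of the macrophage list were lower, and 1 of the muscle and 1 of the macrophage list were higher. Lum, the endothelial gene Tek (-0.74 at its bound) and the chondrocyte gene Comp entered the test through the control arrays only, where they were high. The chondrocyte sum was 7.90 and 9.0 in controls against 0.972 and 1.2 with phorone. The part of these marker shifts in the changes below was not tested. In a bulk sample, fewer cells of a type and less RNA per cell cannot be told apart.

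On the percentile scale, all 3 D cyclins and the inhibitors Cdkn2c and Cdkn1b fell with phorone, Cdk6 was called slightly higher by its brighter probe, and Cdk4 was not called. That is 5 of the 7 measured genes lower and 1 higher, beside 21.0% lower and 23.8% higher (44.9% in all) among 17031 genes, each by its brightest tested probe. Under spike-in scaling Ccnd1 was the only 1 of the 7 still called. Over all tested gene probes that scaling gave 4459 higher instead of 6168, although it moved every change up, and 1611 lower instead of 4917. A call could thus be lost there without a smaller change, as was that of Cdk6 (0.50 to 0.94). The lower calls of Ccnd2, Ccnd3, Cdkn1b and Cdkn2c were lost at smaller changes (-1.25 to -0.81 for Cdkn2c). The other 3 genes, Cdkn1c, Cdkn2a and Cdkn2b, were not well above background on any array. By probe, 7 of the 11 tested were lower, 1 was higher and 3 were not called. The control and phorone arrays did not overlap for 11 of 11 probes, a pattern that 77.9% of all tested probes showed (32.9% lower and 45.0% higher with phorone). The median change was -0.91 over the 7 genes, beside 0.08 over all genes. Every tested probe was above background on all 4 arrays, so none entered the test through 1 group only. With 2 arrays against 2, an exact permutation test of a single gene cannot go below p = 0.333, so the calls rest on the spread that limma shares across probes.

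**Figure D1:**
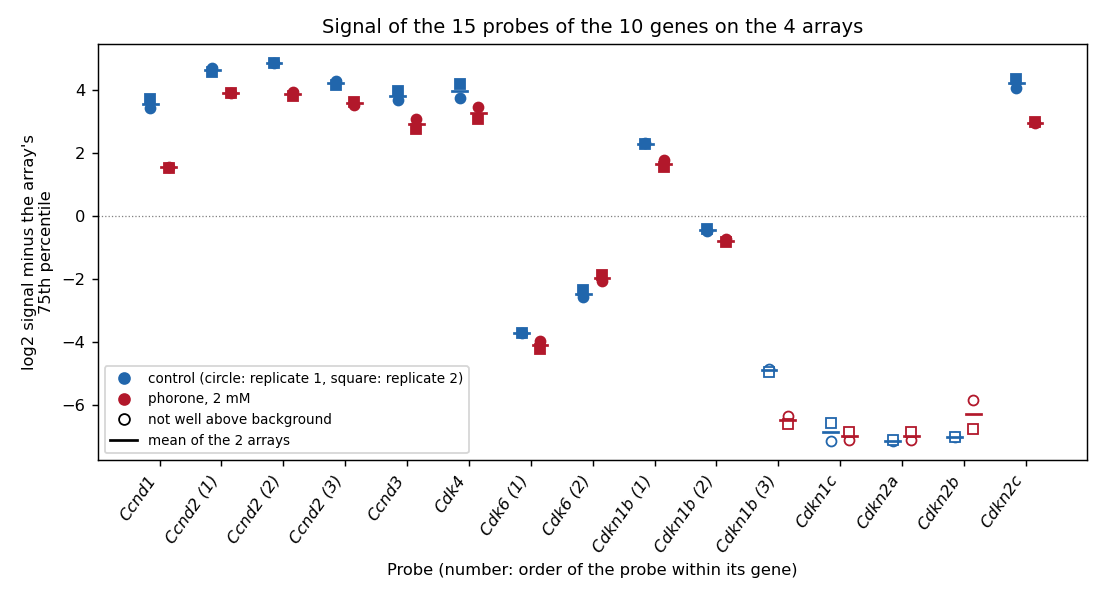
Each column is 1 of the 15 probes and the vertical axis is its log2 signal minus the 75th percentile of the array; blue is control, red is phorone 2 mM, circles and squares are replicates 1 and 2, and bars are means of 2 arrays. Open symbols, below -4.8 on every array, mark the 4 probes that were not well above background, and Ccnd1 shows the widest step, from 3.58 to 1.56.

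Ccnd1 (cyclin D1), the D cyclin most directly tied to mitogen signals, fell most. It was at 3.45 and 3.72 on the control arrays and at 1.57 and 1.54 on the phorone arrays. Both phorone arrays lay well below both controls, and the phorone arrays differed from each other by far less than the controls did. The change was -2.03 (SE 0.15, 95% interval -2.40 to -1.65), a 4.08-fold lower signal (limma adjusted p = 0.000977). Among all tested probes, 4.25% had a lower value than that. Ccnd1 was called lower under each of 15 alternatives, and it was the only one of the 10 genes still called when the arrays were scaled on all 4 arrays' spike-ins (-1.59, limma adjusted p = 0.00399).

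Ccnd2 (cyclin D2) fell by a smaller amount on each of its 3 probes. Probe 2, the brightest, was at 4.88 and 4.86 in controls and at 3.94 and 3.83 with phorone. Its 4 arrays formed a tight pair per group, and the change was -0.98 (SE 0.13, 1.97-fold lower, limma adjusted p = 0.00409). Probe 1 went from 4.71 and 4.59 to 3.92 and 3.92, a change of -0.73 (SE 0.13, limma adjusted p = 0.00927). Probe 3 went from 4.31 and 4.18 to 3.53 and 3.64, a change of -0.66 (SE 0.13, limma adjusted p = 0.0140). Probes 1 and 3 agreed in size, and their 95% intervals overlapped that of probe 2. The call of probe 3 was lost without phorone replicate 1 (-0.60, limma adjusted p = 0.0812) or phorone replicate 2 (-0.71, limma adjusted p = 0.0538). Under spike-in scaling no probe of Ccnd2 was called, with changes of -0.29, -0.55 and -0.22 for probes 1 to 3.

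Ccnd3 (cyclin D3) was at 3.68 and 3.99 in controls and at 3.08 and 2.79 with phorone. Both phorone arrays were lower, but each group was spread, with SDs of 0.22 and 0.20. The change was -0.91 (SE 0.18, 1.87-fold lower, limma adjusted p = 0.0136), and array pairs in the same slide column gave -0.61 and -1.20. Without phorone replicate 2 the change was -0.76 and no longer called (limma adjusted p = 0.0537), and it was -0.47 under spike-in scaling (limma adjusted p = 0.443).

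Differences between genes on the same array do not depend on the scaling. The difference between Ccnd1 and Ccnd2 moved by -1.05 with phorone (-0.95 and -1.15 in the slide columns), and that between Ccnd1 and Ccnd3 by -1.12 (-1.27 and -0.97). Ccnd1 thus lost more signal than either of the other D cyclins in both columns. An exact permutation test of these 4 arrays could not go below p = 0.333. The genes whose course over the 4 arrays lay nearest to that of Ccnd1, by Euclidean distance between mean-centred log2 values among 15696 genes, were Cntln (0.03), Nfkbie (0.04) and Mutyh (0.07). Cntln encodes the centriolar protein centlein, Nfkbie an inhibitor of NF-kB, and Mutyh a DNA glycosylase. Their changes were -2.02, -2.03 and -2.06, and with 4 arrays in 2 groups this likeness is mostly a like step between the groups.

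**Figure D2:**
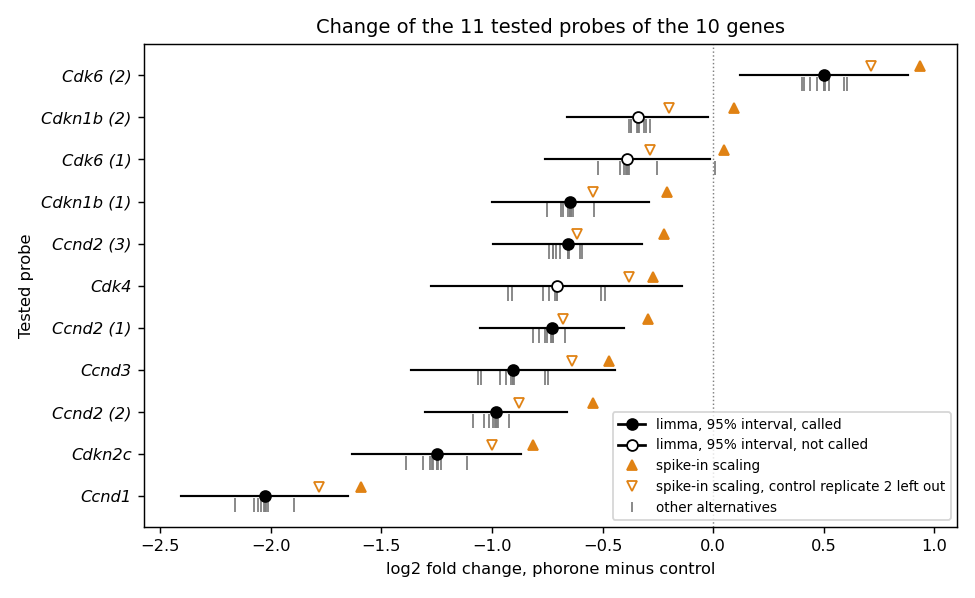
The horizontal axis is the log2 change (phorone minus control) of the 11 tested probes, with the limma 95% interval as a line, filled circles for called probes, filled orange triangles for spike-in scaling, open ones for spike-in scaling with control replicate 2 left out of the comparison, and grey ticks for the other alternatives. Ccnd1 at -2.03 lies left of 0 under every setting, while under spike-in scaling the value of Cdkn1b probe 2 and that of Cdk6 probe 1 lie right of 0, at 0.09 and 0.05.

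Of the kinases, Cdk4 was not called and the probes of Cdk6 disagreed. Cdk4, the main partner of D cyclins in fibroblasts, was at 3.77 and 4.21 in controls and at 3.48 and 3.08 with phorone. The groups did not overlap, yet control replicate 1 and phorone replicate 1 lay only 0.29 apart, and the SDs of 0.31 and 0.28 were the widest of the 11 tested probes. The change was -0.71 (SE 0.22, 95% interval -1.28 to -0.14), and its limma adjusted p of 0.0510 fell just outside the threshold. The call turned on single arrays: Cdk4 was called lower without control replicate 1 (-0.93, limma adjusted p = 0.0388) and without phorone replicate 1 (-0.91, limma adjusted p = 0.0334). It was also called under 4 of the other alternatives (normexp background, quantile normalization, median scaling, and only probes above background on all 4 arrays). Under spike-in scaling it was -0.27 (limma adjusted p = 0.667).

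Cdk6, the other D cyclin partner, was dim, and the changes of its 2 probes had opposite signs. Probe 2, the brighter, was at -2.56 and -2.35 in controls and at -2.04 and -1.86 with phorone. That is a processed signal of 119 and 146 units against 137 and 157, so the unscaled values of the groups overlapped and the scaled ones did not. The change was 0.50 (SE 0.15, 1.42-fold higher, limma adjusted p = 0.0434). Probe 1 was at -3.70 and -3.72 in controls and at -3.97 and -4.23 with phorone, a change of -0.39 that was not called (SE 0.15, limma adjusted p = 0.0834). The gap between the probes widened by 0.89 with phorone in the mean, and it widened in both slide columns. Scaling an array by 1 number does not alter it, but the normexp background setting does. That setting adds an offset of 50 units to every signal, beside 30.5 to 56.8 processed units for probe 1. Such an offset shrinks the log2 changes of dim probes, here and wherever that setting is used below. Under it the changes were 0.44 for probe 2 and 0.0081 for probe 1, no longer of opposite sign. That difference cannot be told apart from an effect of the offset. The higher call was lost in 8 of 15 alternatives, including without control replicate 1 (0.40, limma adjusted p = 0.109), phorone replicate 1 (0.59, limma adjusted p = 0.0922) or phorone replicate 2 (0.41, limma adjusted p = 0.233). Under spike-in scaling the call of probe 2 was lost at a larger change, 0.94 (limma adjusted p = 0.112). The mean of both probes changed by 0.06 (limma adjusted p = 0.717), so no single direction of Cdk6 can be given.

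On the same array, Ccnd1 lost more signal than Cdk4, their difference moving by -1.32 (-1.59 and -1.05 in the columns). Ccnd2 and Cdk4 did not separate in this way, since their difference moved by -0.27 on average, with -0.64 in one column and 0.10 in the other. Ccnd3 against Cdk4 moved by -0.20 (-0.32 and -0.08).

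Of the 3 INK4 genes, Cdkn2c (p18) was above background, and it fell. It was at 4.09 and 4.37 in controls and at 2.96 and 3.00 with phorone. Both phorone arrays lay over 1 unit below the lower control. The change was -1.25 (SE 0.15, 95% interval -1.63 to -0.87, 2.38-fold lower, limma adjusted p = 0.00340), the next largest after Ccnd1. The call was kept in 14 of 15 alternatives and lost under spike-in scaling (-0.81, limma adjusted p = 0.172). With spike-in scaling and control replicate 2 left out of the comparison, so that 1 control array stood against 2 phorone arrays, it was called lower, as were Ccnd1 (-1.78) and Ccnd2 probe 2 (-0.88). Ccnd1 lost more signal than Cdkn2c on the same array, by -0.78 (-0.75 and -0.81 in the columns).

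Cdkn2a (p16 and ARF) and Cdkn2b (p15), the INK4 genes best known as barriers to transformation, were not well above background on any array. The unscaled signals of Cdkn2a were 4.94 and 5.36 in controls and 4.07 and 4.89 with phorone, and those of Cdkn2b were 5.44 and 5.73 against 9.93 and 5.24. For comparison, the dimmest tested strand, Cdk6 probe 1, stood at 30.5 to 56.8 units. Each of these genes had 1 probe, and no fold is given for it. A dark probe can stand beside bright probes of the same gene, as Cdkn1b probe 3 did.

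Of the KIP genes, Cdkn1b (p27) fell on its brightest probe. Probe 1 was at 2.32 and 2.30 in controls and at 1.77 and 1.56 with phorone. The controls were nearly equal and both phorone arrays were lower, a change of -0.65 (SE 0.14, 1.56-fold lower, limma adjusted p = 0.0170). Probe 2 was at -0.46 and -0.40 in controls and at -0.73 and -0.81 with phorone, a change of -0.34 that was not called (SE 0.12, limma adjusted p = 0.0765). Probe 3 was not well above background on any array, with unscaled signals of 24.5 and 24.1 in controls and 6.89 and 5.88 with phorone. Without phorone replicate 2 the change of probe 1 was -0.54 and not called (limma adjusted p = 0.116). Under spike-in scaling probe 1 was at -0.21 and probe 2 at 0.09, neither called, so a fall of Cdkn1b depends on the scale. By their brightest probes, Cdkn1b lost less signal than Ccnd2 on the same array, their difference rising by 0.34 (0.38 and 0.29 in the columns). This order depended on the probe of Ccnd2. In the columns Cdkn1b probe 1 changed by -0.55 and -0.74, Ccnd2 probe 1 by -0.79 and -0.67, and Ccnd2 probe 3 by -0.78 and -0.54. Against those 2 probes of Ccnd2, Cdkn1b lost less in one column and more in the other.

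Cdkn1c (p57), an imprinted gene, was not well above background on any array, with unscaled signals of 4.96 and 7.89 in controls and 4.09 and 4.89 with phorone. Of the 9 genes listed for the imprinted domain around it, 8 were tested. In limma 0 were higher (also 0 at an unadjusted p below 0.05) and 4 lower, beside 23.8% higher and 21.0% lower among 17031 genes. The median change of the list was -0.47, beside 0.08 over all genes. Phlda2, 1 of the 4, entered the test through the control arrays only, where it was high. The transporter gene Slc22a18 fell by 2.43 on its brightest probe (SE 0.15, limma adjusted p = 0.000647), while its other probe, at -0.40, was not called. The tetraspanin gene Tspan32 fell by 2.01 (SE 0.18, limma adjusted p = 0.00165), and its other probe was called lower too; with normexp background its change was -0.89. Without control replicate 1 the list had 2 genes lower.

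**Figure D3:**
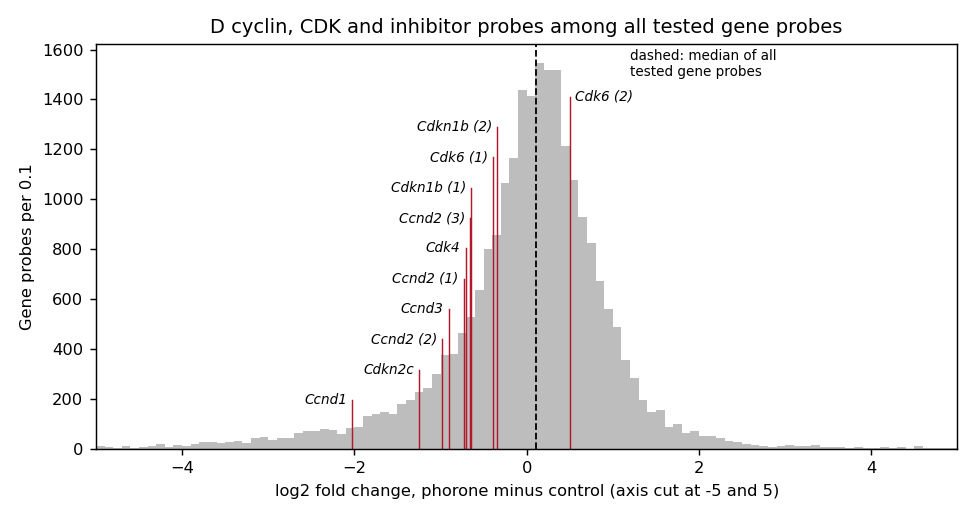
Grey bars count the 24205 tested gene probes by log2 change (phorone minus control) in steps of 0.1, red lines mark the 11 tested probes of the D cyclin, CDK and inhibitor genes, and the dashed line is the median of all probes, 0.11. Of the 11 probes, 10 lie left of 0, from -2.03 for Ccnd1 to -0.34 for Cdkn1b probe 2, and Cdk6 probe 2 lies right of it at 0.50.

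The 300-base promoter windows of 7 of the 10 genes were in the RefSeq table of GRCm38.p6 (250 bases before to 50 after a start, 10 windows), and there was none for Ccnd1, Ccnd2 and Cdkn1c. Windows are shown for the 3 of these genes called lower, with 1 start each where they have several (the start whose window held a match), and for Cdk4, whose window held the most E-boxes. Capitals mark matches to the antioxidant response element core TGACNNNGC or the E-box CACGTG on either strand.
Ccnd3, GRCm38.p6 chr17:47504801-47505100, plus strand: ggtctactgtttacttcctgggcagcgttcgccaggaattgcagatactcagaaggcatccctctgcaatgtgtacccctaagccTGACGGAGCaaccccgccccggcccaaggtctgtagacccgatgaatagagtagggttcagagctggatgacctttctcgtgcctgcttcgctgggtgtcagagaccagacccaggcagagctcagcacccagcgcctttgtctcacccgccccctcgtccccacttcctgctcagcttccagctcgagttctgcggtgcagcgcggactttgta
Cdkn1b, GRCm38.p6 chr6:134920151-134920450, plus strand: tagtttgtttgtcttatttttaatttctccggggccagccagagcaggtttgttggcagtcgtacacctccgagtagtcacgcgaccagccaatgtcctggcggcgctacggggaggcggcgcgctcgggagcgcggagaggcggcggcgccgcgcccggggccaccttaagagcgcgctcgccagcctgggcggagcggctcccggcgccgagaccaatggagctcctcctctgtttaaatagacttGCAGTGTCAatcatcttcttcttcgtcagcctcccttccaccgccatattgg
Cdkn2c, GRCm38.p6 chr4:109665323-109665622, minus strand: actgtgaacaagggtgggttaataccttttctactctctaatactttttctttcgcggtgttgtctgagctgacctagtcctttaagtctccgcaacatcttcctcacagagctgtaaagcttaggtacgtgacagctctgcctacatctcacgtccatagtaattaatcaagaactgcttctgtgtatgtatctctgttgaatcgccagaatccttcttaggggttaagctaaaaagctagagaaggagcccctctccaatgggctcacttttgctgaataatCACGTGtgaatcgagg
Cdk4, GRCm38.p6 chr10:127063285-127063584, plus strand: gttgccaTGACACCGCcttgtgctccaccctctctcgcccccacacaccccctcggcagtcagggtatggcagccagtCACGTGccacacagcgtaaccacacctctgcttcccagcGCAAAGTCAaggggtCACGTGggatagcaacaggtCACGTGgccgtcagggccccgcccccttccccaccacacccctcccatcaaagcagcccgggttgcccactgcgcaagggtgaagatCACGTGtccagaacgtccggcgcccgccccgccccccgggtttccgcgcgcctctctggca
The Cdk4 window held 4 E-boxes, the letters bound by MYC and its relatives, and 2 antioxidant response element cores, the letters bound by NRF2. Such an E-box was in 7.15% of all 32851 windows and such a core in 12.4%. The Ccnd3 and Cdkn1b windows shown held 1 core each, and the Cdkn2c window shown held 1 E-box. The other window of Ccnd3 and that of Cdkn2c held 0 of either. A core was also in 1 Cdkn2a window, and an E-box in the Cdk6 window. The Sp1 box GGGCGG was in 35.7% of all windows. It occurred 3 times in the Cdk4 window, 2 of them overlapping by a base, 2 times in that of Ccnd3, 1 time in that of Cdkn1b and 0 times in that of Cdkn2c. The other Cdkn2c window held it 4 times, the other Ccnd3 window 2 times, the Cdkn2a windows 3 and 1 times, the Cdkn2b window 1 time and the Cdk6 window 0 times. No window of these genes held the AP-1 letters TGACTCA (5.2% of all windows). An E2F match (TTTCCCGC, TTTGGCGC, TTTCGCGC or TTTGCCGC, 2.26% of all windows) was in 1 Cdkn2a window. A cAMP response element TGACGTCA (1.79%) was in the Cdkn2b window. These are matches of letters within short windows and show no binding.

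The genes listed downstream of the D cyclin kinases had counts in both directions. The share of all 17031 genes called was 23.8% higher and 21.0% lower (44.9% in all), and the counts of each list below stand beside it. Among the 13 RB and E2F factors, 2 were called higher and 2 lower by their brightest probe. E2f3 (0.13) and Tfdp2 (-0.40) were not called that way, yet each had 2 other probes, both called higher. Those were at 1.19 and 1.36 for E2f3 and at 0.93 and 1.15 for Tfdp2. Their median change was 0.26, beside 0.08 for all genes. Rb1 itself went from 0.99 and 0.61 to 1.07 and 1.27, a change of 0.37 that was not called (limma adjusted p = 0.15). The RB relative Rbl1 (p107) rose by 0.67 (SE 0.17, limma adjusted p = 0.0296) and the other relative, Rbl2 (p130), changed by -0.74 (SE 0.14, limma adjusted p = 0.0124), but each had another probe, at 0.17 and 0.07, that was not called. Rbl2 was at -0.49 with normexp background. E2f6, a repressive E2F, rose by 0.94 (SE 0.19, limma adjusted p = 0.0136), and E2f8, also repressive, fell by 1.10 (SE 0.12, limma adjusted p = 0.00280), or by 0.66 with normexp background. E2f1 was at -0.49 and not called (limma adjusted p = 0.0527), though it was called lower without control replicate 1 (limma adjusted p = 0.0431), with normexp background (0.0257), with median scaling (0.0360), with only probes above background on all 4 arrays (0.0363) and by the mean of its probes (0.0450). The call of Rbl1 was lost without control replicate 1, control replicate 2 or phorone replicate 2, which left 1 gene higher, and that of Rbl2 without phorone replicate 1, which left 1 gene lower.

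Of 20 E2F target genes of S phase, 14 rose and 2 fell, beside 23.8% higher and 21.0% lower among all genes, and the median change was 0.62. Orc1, a subunit of the origin recognition complex, rose from -3.32 and -3.53 to -1.85 and -1.58, a change of 1.71 (SE 0.16, limma adjusted p = 0.00184), or 1.03 with normexp background. Cdt1, which loads the replicative helicase, rose by 1.55. Rrm2, a subunit of ribonucleotide reductase, fell by 0.84. Tk1, thymidine kinase, fell by 1.86. The count of higher genes was 6 without phorone replicate 2 and 9 without phorone replicate 1, and the Rrm2 call was lost without control replicate 1, control replicate 2 or phorone replicate 1. Under spike-in scaling 9 genes were higher and 1 lower.

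Of 12 genes listed as E cyclins, CDK2 and other G1 regulators, 4 rose and 2 fell by their brightest probe, with 44.9% of all genes called, and the median change was 0.07. Ccnh, 1 of the 4, had 2 other probes, 1 called higher (0.67) and 1 called lower (-0.46). Cdkn3 was not called by its brightest probe (-0.48), but its other probe (-0.55) was called lower. The E cyclins, which partner CDK2 after the D cyclins have acted, moved apart. Ccne1 was at 2.58 and 2.50 in controls and at 2.03 and 2.18 with phorone, a change of -0.44 (SE 0.13, limma adjusted p = 0.0467), while Ccne2 went from -2.75 and -3.09 to -2.38 and -1.86, a change of 0.80 (SE 0.23, limma adjusted p = 0.0394). Ccne2 was at 0.56 with normexp background. The Ccne1 call was lost when any single array was left out, and that of Ccne2 without control replicate 1, control replicate 2 or phorone replicate 2. Ccna2 (cyclin A2) fell by 0.62 (limma adjusted p = 0.0481), a call lost without control replicate 1, control replicate 2 or phorone replicate 1. Cdk2 rose by 1.55 on its brightest probe (SE 0.12, limma adjusted p = 0.00120), which was dim, and its other probe was at -0.16 and not called. With normexp background the change of the brightest probe was 0.84. Cdk7, the kinase that activates CDKs, rose by 0.98 (SE 0.18, limma adjusted p = 0.0103), with another probe at 0.18 that was not called. The remaining inhibitors of these families were not called: Cdkn1a (p21) was at 3.60 and 4.11 in controls and at 3.66 and 3.57 with phorone (limma adjusted p = 0.374), with overlapping groups, and Cdkn2d (p19) changed by 0.02 (limma adjusted p = 0.888).

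Of 16 genes for the turnover of D cyclins and p27, 5 were called higher and 3 lower, and the median change was 0.19. Uhmk1, 1 of the 5, entered the test through the phorone arrays only, and with only probes above background on all 4 arrays 4 were higher and 4 lower. Skp2, which marks p27 for degradation, rose from -2.77 and -3.37 to -2.28 and -2.07, a change of 0.90 (SE 0.23, limma adjusted p = 0.0298), or 0.63 with normexp background. Cul1, the scaffold of the same ligase, rose by 0.70 (SE 0.13, limma adjusted p = 0.0112). Rnf123, part of another p27 ligase, fell by 0.70 on its brightest probe (limma adjusted p = 0.0342) and was called lower on its other probe too. Spry2, an inhibitor of growth factor signalling, fell by 1.26 on one probe (limma adjusted p = 0.00927) and was at -0.09 on the other. The calls of Skp2 and Rnf123 were lost without control replicate 2 or phorone replicate 2, that of Rnf123 also without phorone replicate 1, and that of Cul1 without phorone replicate 2. Without phorone replicate 2, 1 gene of the list was higher and 1 lower, and without control replicate 1, 5 were lower.

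Of 18 factors known to act on the Ccnd1 promoter, 3 were called higher and 7 lower by their brightest probe, and the median change was -0.22. Some genes not called that way had other probes that were called. Both others of Creb1 (1.98 and 2.00), 1 of 2 of Ets1 (2.09) and 2 of 3 of Atf2 (up to 1.62) were called higher. The remaining probe of Atf2 (-0.51) and the other probe of Sp1 (-0.65) were called lower. Tcf7, 1 of the 7, was above background in controls only, so it entered the test through the group where it was high, and with only probes above background on all 4 arrays 6 were lower. Fos and Egr1, immediate early factors, fell: Fos from 2.45 and 3.24 to 1.06 and 0.52, a change of -2.05 (SE 0.33, limma adjusted p = 0.00726), and Egr1 from 6.15 and 6.21 to 3.95 and 3.86, a change of -2.28 (SE 0.12, limma adjusted p = 0.000554). Fosl1, which encodes the AP-1 subunit FRA-1, rose from -0.31 and 0.87 to 2.66 and 3.1, a change of 2.60 (SE 0.41, limma adjusted p = 0.00728). Myc rose by 0.95 (SE 0.23, limma adjusted p = 0.0243), and both of its other probes were called higher. The list thus moved in both directions, and without phorone replicate 1 it had 4 genes lower.

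Of 22 factors that act on CDK inhibitor genes, 21 were tested, with 7 higher and 5 lower and a median of 0.10. Foxo3, 1 of the 7, entered the test through the phorone arrays only, and with only probes above background on all 4 arrays 6 were higher and 6 lower. Ezh2, the Polycomb methyltransferase that silences the Cdkn2a locus in dividing cells, rose from 1.21 and 0.65 to 2.05 and 2.13, a change of 1.16 (SE 0.22, limma adjusted p = 0.0114), and its other probe was called higher too. Foxo4, one of the FOXO factors that activate Cdkn1b, rose by 0.93 (SE 0.13, limma adjusted p = 0.00495) from a dim level, or by 0.55 with normexp background. Ring1, a Polycomb ubiquitin ligase, fell by 0.77 on its brightest probe, with another at -0.23 not called, and Tbx3, a repressor of Cdkn2a, fell by 0.74. The Ring1 call was lost without either phorone replicate and the Tbx3 call without phorone replicate 1. The counts were 3 higher and 3 lower without control replicate 2, 4 and 1 without phorone replicate 1, and 3 and 1 without phorone replicate 2.

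**Figure D4:**
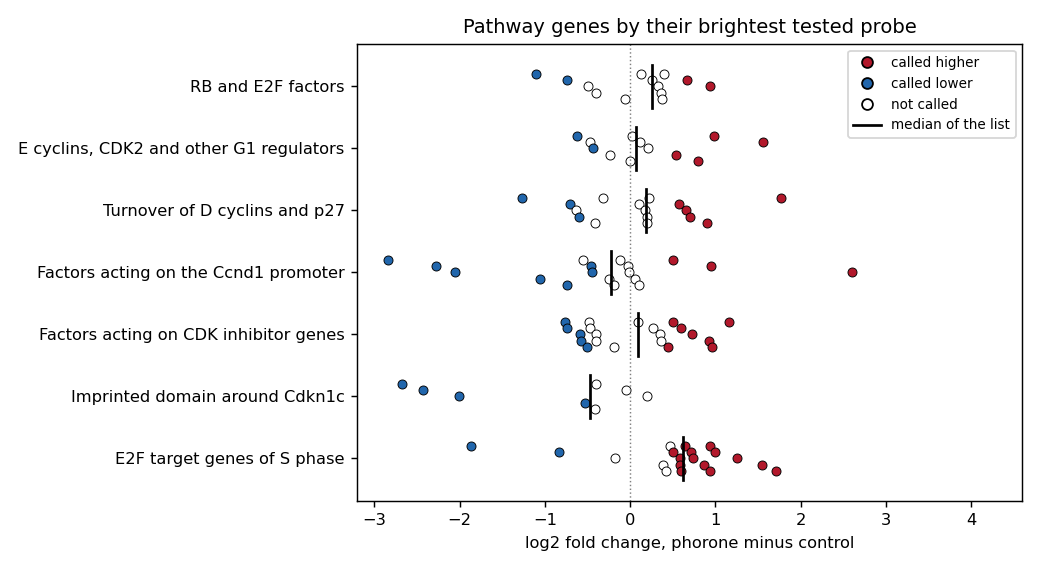
Each point is the log2 change (phorone minus control) of 1 gene of the pathway lists by its brightest tested probe, red where called higher, blue where called lower and white where not called, and the black bar is the median of the list. The median is highest for E2F targets of S phase (0.62) and lowest for the imprinted domain around Cdkn1c (-0.47).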

How the data were processed

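The deposited intensity values are, per the file headers, the processed signal of Agilent Feature Extraction 10.7.3.1 (background-subtracted, detrended, not normalised between arrays). A series table deposited by the authors holds log2 values, equal to that signal minus 1 number per array (SD of the difference at most 0.0223; column medians -4.39, -4.35, -4.37 and -4.30). Here log2 signals minus the 75th percentile of each array were averaged over spots of a probe. Outlier flags removed 111 probes, and probes for noncoding transcripts were left out. Gene probes that passed the scanner's background call on both arrays of a group were tested with limma 3.58.1 in R 4.3.3 (lmFit and eBayes, two-sided, 2 residual and 3.08 prior degrees of freedom, Benjamini-Hochberg over all tested probes). A gene is called by its brightest tested probe. The fit was tested on simulated data. RefSeq names (GRCm38.p6) covered 28136 gene probes (69.3%). The files, annotated on mm9, list the 15 probes as unmapped, so no position is given.

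The genes and lists were chosen with earlier results of these data known. Named were all 10 genes, up to 2 called genes each way per list with the largest change among those above background on all 4 arrays, a set of genes with a known role beside them, and the 3 genes nearest to Ccnd1. Of 16 alternatives, spike-in scaling with control replicate 2 left out was chosen after seeing the data. The number of arrays limits the precision. Replicate numbers pair no samples in the labels.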

Additional observations from a re-analysis of the deposited data

How the results depend on the processing

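The signs of the called probes of the D cyclin, CDK and inhibitor genes held under all alternatives run, and Ccnd1 was called under each. Spike-in scaling gave 1611 gene probes lower and, of the 10 genes, 0 higher and 1 lower (probes 0 and 1). By list it gave RB and E2F factors 1 higher and 0 lower, E cyclins and G1 regulators 0 lower, turnover 3 and 0, Ccnd1 promoter factors 3 lower, inhibitor gene factors 4 and 0, and E2F targets 9 and 1. With spike-in scaling and control replicate 2 left out of the whole comparison, which changes both choices and leaves 1 control array, there were 3102 gene probes lower, and of the 10 genes 0 higher and 3 lower (probes 0 and 3), RB and E2F factors 1 and 1, E cyclins 2 and 0, turnover 2 and 1, Ccnd1 promoter factors 1 and 4, inhibitor gene factors 3 and 0, and E2F targets 7 higher. Without a filter on dim probes there were 3823 gene probes higher, and of the 10 genes 0 higher and 3 lower (probes 0 higher), RB and E2F factors 0 higher, E cyclins 2 and 0, turnover 2 and 1, Ccnd1 promoter factors 1 higher, inhibitor gene factors 3 and 1, the imprinted domain 2 lower, and E2F targets 8 and 1. With noncoding probes included, 0 of the 10 genes and 0 of their probes were higher, and E cyclins had 2 and 0. Taking the mean of a gene's probes gave 0 of the 10 genes higher and 6 Ccnd1 promoter factors higher. Normexp background gave 5 turnover genes and 8 inhibitor gene factors lower. The causes were not tested.

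Leaving out 1 array at a time gave 3501 to 5812 gene probes higher and 3599 to 4750 lower. The 10 genes ranged over 0 to 1 higher and 3 to 6 lower, and their probes over 0 to 1 and 4 to 8, both fewest lower without phorone replicate 2. Ranges by list were 1 to 2 higher and 1 to 3 lower for RB and E2F factors, 2 to 3 higher and 0 to 1 lower for E cyclins and G1 regulators, 1 to 5 higher and 1 to 5 lower for turnover, 2 to 3 higher and 4 to 7 lower for Ccnd1 promoter factors, 3 to 6 higher and 1 to 4 lower for inhibitor gene factors, 2 to 4 lower for the imprinted domain, and 6 to 14 higher and 1 to 2 lower for E2F targets. The remaining array of a group was assumed to vary like the other group.

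The signs of 4 uncalled values turned. Cdk6 probe 1 was at 0.0081 with normexp and 0.0476 with spike-in scaling, and Cdkn1b probe 2 at 0.0937 with the latter. Cdkn1a was at 0.20 with spike-in scaling, 0.13 with spike-in scaling and control replicate 2 left out of the comparison, and ranged from -0.4872 to 0.016 with 1 array left out, the highest without control replicate 2. Cdkn2d was at -0.0535 with normexp, -0.0264 with quantile normalization and -0.0069 with median scaling, and ranged from -0.0399 to 0.0897 with 1 array left out.

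The deviations of same-numbered arrays from their group means correlated with r = -0.04 over 24205 probes, which are not independent, and the labels give no pairing. Same-numbered arrays share a number and a slide column. With the replicate number, and so the slide column, as a block, 5252 gene probes were higher and 4501 lower, 0 of the 10 genes and of their probes were higher, E cyclins and G1 regulators had 2 and 1, and inhibitor gene factors 4 higher.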
